A study of Mus musculus with 2 samples.

Results

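The Mir130 and Mir301 family of the mouse comprised 4 counted genes, Mir130a, Mir130b, Mir301 (whose products are named miR-301a) and Mir301b, out of 1973 miRNA genes in the deposited tables. They were found by matching the Ensembl gene identifiers, without version, to these symbols in the GENCODE annotation of mm10, and all 4 were present in both libraries. The libraries came from small RNA of the embryonic facial prominence, the tissue that builds the face and jaws, taken from B6NCrl mice at embryonic day 15.5 that the labels call healthy and give no treatment for. The study has a single group with 2 biological replicates, replicate 2 with facial tissue pooled from 62 embryos and replicate 1 with tissue pooled from 78 embryos, both of mixed sex. Each replicate is a pool of many embryos and of all cell types of the dissected tissue, so neither single embryos nor single cell types can be seen. The design allows 1 comparison, replicate 2 against replicate 1, which shows how far the levels of the family differ between these libraries. Each pool gave 1 library, so differences between pools and those from library preparation or sequencing cannot be told apart.

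MicroRNAs are short RNAs cut from a hairpin precursor. They guide Argonaute proteins to mRNAs that pair with the seed, bases 2 to 8 of the mature product, and they lower the output of those mRNAs. A hairpin can give a product from its 5′ arm (5p) and from its 3′ arm (3p). In this family the 3p products share a seed and are therefore predicted to pair with overlapping sets of mRNAs. The family has been studied in blood vessels, where miR-130a is linked to the growth of endothelial cells, and in fat cells, where miR-130 represses the adipocyte regulator Pparg.

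The hairpins are shown to locate the seed that defines the family. The RefSeq table (GRCm38.p6, the same assembly as mm10) held a hairpin for all 4 genes, each with 1 match to the family seed, which stands in capitals. Mir130a (ENSMUSG00000065484) lies at chr2:84741115-84741178 on the minus strand, Mir130b (ENSMUSG00000065572) at chr16:17124061-17124142 on the minus strand, Mir301 (ENSMUSG00000065589) at chr11:87113004-87113089 on the plus strand and Mir301b (ENSMUSG00000076288) at chr16:17124400-17124496 on the minus strand.
Mir130a hairpin: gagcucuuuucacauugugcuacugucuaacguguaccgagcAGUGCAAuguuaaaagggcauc
Mir130b hairpin: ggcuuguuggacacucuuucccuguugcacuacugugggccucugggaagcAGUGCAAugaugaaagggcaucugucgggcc
Mir301 hairpin: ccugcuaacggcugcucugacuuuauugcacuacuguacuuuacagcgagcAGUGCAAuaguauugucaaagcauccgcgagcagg
Mir301b hairpin: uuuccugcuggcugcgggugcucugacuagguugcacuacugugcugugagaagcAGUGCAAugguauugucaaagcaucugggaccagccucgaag

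The table held the mature 3p product of 3 genes, Mir130a, Mir130b and Mir301, and the mature 5p product of all 4. The 3p products are shown with bases 2 to 8 in capitals, because they carry the shared seed AGUGCAA.
mmu-miR-130a-3p: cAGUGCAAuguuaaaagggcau
mmu-miR-130b-3p: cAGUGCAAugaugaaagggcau
mmu-miR-301a-3p: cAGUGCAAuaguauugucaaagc
The 5p products are shown in the same way, because they separate the members that the 3p seed joins.
mmu-miR-130a-5p: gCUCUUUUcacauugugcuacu
mmu-miR-130b-5p: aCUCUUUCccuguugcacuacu
mmu-miR-301a-5p: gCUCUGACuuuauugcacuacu
mmu-miR-301b-5p: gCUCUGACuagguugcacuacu
The 5p seeds fell into 3 groups, CUCUUUU in miR-130a-5p, CUCUUUC in miR-130b-5p and CUCUGAC in both miR-301a-5p and miR-301b-5p.

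The 3p side of the hairpins was compared over 22 bases that start 1 base before the seed, with positions counted from 1 at the 5′ end. All 4 segments began with cagugcaau, and no pair of members differed before position 10. Mir130a and Mir130b were alike at 20 of 22 bases and differed by U11A and A13G. Mir301 and Mir301b were alike at 21 of 22 bases and differed by A10G alone. Between the Mir130 and Mir301 genes 9 to 11 of the 22 bases differed. The family thus holds a Mir130 pair and a Mir301 pair by sequence, while by position Mir130b is next to Mir301b. Among 2202 miRNA transcripts of the annotation, none outside the gene itself held any of these 22-base segments. The longest run shared with another miRNA transcript was 17 bases for Mir130a, with Mir6389, and 16 bases for each of the other 3 genes. The deposited counts leave out reads that mapped to several places. A single base separates the Mir301 and Mir301b segments, and the number of mismatches allowed in the alignment is not given in the sources used here, so the smaller count of Mir301b is uncertain to that extent.

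The loci differ in their surroundings. Mir130a overlaps no other annotated gene, and its nearest neighbour is Gm19426, which lies 990 bases upstream on the same strand. Mir301 lies in an intron of Ska2, a protein-coding gene for a subunit of the spindle and kinetochore associated complex, on the same strand and 3770 bases from the annotated gene start. Mir301b and Mir130b lie on the same strand of the protein-coding gene 2610318N02Rik, 671 and 1025 bases from its annotated start and 257 bases apart. In the 3 annotated transcripts of this gene that span them, both hairpins sit within the same intron, which is 1335 or 3438 bases long. No exon of either host overlapped a hairpin. Within 10000 bases of a member, the only other counted miRNA gene was the partner in this pair. The libraries hold small RNA only, so the levels of Ska2 and 2610318N02Rik were not measured.

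**Figure D1:**
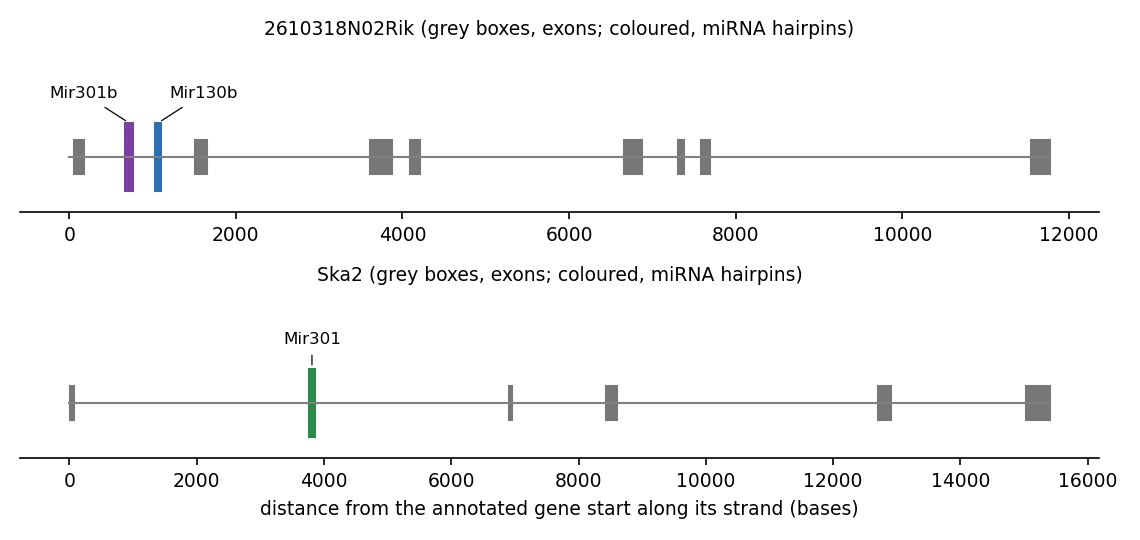
Map of the host genes 2610318N02Rik (top) and Ska2 (bottom), drawn to scale along the strand of the gene. The horizontal axis is the distance in bases from the annotated gene start, grey boxes are exons of the spanning transcript with most exons, and coloured boxes are the hairpins. Mir301b and Mir130b sit 671 and 1025 bases from the start of 2610318N02Rik within 1 intron, and Mir301 sits 3770 bases from the start of Ska2.

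Sequencing gave 14085643 reads for replicate 2 and 5840705 for replicate 1, of which 6408008 and 2978463 were assigned to miRNA genes. A further 29.7% of the reads in replicate 2 and 30.6% in replicate 1 mapped to several places. At least 10 reads in each library, the requirement for a test, were found for 333 genes, while 1463 genes had at most 3 reads in each. Levels are given as CPM, the usual depth-scaled count of miRNA reads, after TMM scaling. For scale, 3 reads equal 0.470 CPM in replicate 2, against 1.00 CPM in replicate 1. The gene with the highest mean, the skin-associated Mir203, had 79020 ± 16370 CPM (SD, n = 2). All counted markers of epithelium (7), mesenchyme and neural crest (6) and cartilage (2) had at least 10 reads in each library. Epithelial markers summed to 128519 CPM in replicate 2, against 152004 CPM in replicate 1. Among them Mir203 and Mir205 had 67445 and 17709 CPM in replicate 2, against 90596 and 24276 CPM in replicate 1. The exact binomial test between the libraries called 4 of the 7 higher in replicate 2 and 3 higher in replicate 1 (median log2 ratio 0.10). Mesenchyme and neural crest markers summed to 16971 CPM in replicate 2 and to 18421 CPM in replicate 1, a sum carried by Mir214, while 4 of the 6 were called higher in replicate 2 and Mir214 alone higher in replicate 1 (median log2 ratio 0.24). In this list Mir199a-1 and Mir199a-2, with means of 15.6 and 201 CPM, are copies that share mature products. Reads that mapped to several places were left out, so their counts and calls, and with them the sum, are uncertain. Cartilage markers summed to 14410 and 15363 CPM, with both called higher in replicate 1. Of 8 listed neural markers 6 were counted, of which 1, Mir137, had at least 10 reads in each library and 4 had at most 3, with a sum of 209.8 CPM in replicate 2 and 196 CPM in replicate 1. The other 5 counted neural genes are copies of Mir9 and Mir124, which share mature products between copies, so their low counts are uncertain. The liver marker Mir122 stood at 70.0 and 30.4 CPM.

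Together the 4 members took 145475 reads in replicate 2 and 67093 reads in replicate 1. This was 2.27% of all miRNA counts in replicate 2 (95% Clopper-Pearson interval 2.26 to 2.28) and 2.25% in replicate 1 (2.24 to 2.27). Intervals of this kind describe counting error alone, because the reads carry no molecular identifiers and are not independent molecules. All miRNA counts here leave out reads that mapped to several places, so these are shares of uniquely mapped reads only. The summed level was 22781 CPM in replicate 2 and 22448 CPM in replicate 1, with a mean of 22614 ± 236 CPM (SD, n = 2). The family sum therefore differed by a log2 ratio of 0.02 between the libraries. Of the 212568 family reads in both libraries, 5 lay on the strand opposite to the gene, all of them at Mir130a, against 3.36% of all miRNA counts in replicate 2 and 3.30% in replicate 1.

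Mir130a carried most of the family. It had 117981 reads in replicate 2 and 55111 reads in replicate 1, which is 18476 and 18439 CPM and a mean of 18457 ± 26.3 CPM (SD, n = 2). Mir130a was the gene with rank 13 among 1973 in each library. Ranks leave out reads that mapped to several places, so genes with copies that share mature products may rank too low. Mir130b had 20732 reads in replicate 2 and 8425 in replicate 1, or 3247 and 2819 CPM, with a mean of 3033 ± 303 CPM (SD, n = 2). It ranked 58 in replicate 2 and 63 in replicate 1. In a tissue pool such as this, more cells of a type and more RNA per cell cannot be told apart.

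The Mir301 genes stood lower. Mir301 had 6396 reads in replicate 2 and 3390 reads in replicate 1, which is 1002 and 1134 CPM and a mean of 1068 ± 93.8 CPM (SD, n = 2). It ranked 105 in replicate 2 and 98 in replicate 1. Mir301b had 366 reads in replicate 2 and 167 reads in replicate 1, which is 57.3 and 55.9 CPM and a mean of 56.6 ± 1.02 CPM (SD, n = 2). It ranked 226 in replicate 2 and 228 in replicate 1, and its CPM was below the median of 180.3 CPM over the 333 genes with at least 10 reads in each library.

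The order from Mir130a through Mir130b and Mir301 to Mir301b was the same in both libraries. Each gap between neighbours in mean CPM was wider than the larger SD of the pair, 51.0 times that SD between Mir130a and Mir130b, 6.49 times between Mir130b and Mir301 and 10.8 times between Mir301 and Mir301b. With 2 replicates these SDs are themselves poorly known. They describe the spread between these libraries, pool and preparation together. They do not describe how efficiently each product was captured in a library, which was not measured. A read here stands for a whole mature product, so levels were not divided by length. Per 100 bases of annotated hairpin the order did not change, with mean levels of 28840 CPM for Mir130a, 3698 CPM for Mir130b, 1242 CPM for Mir301 and 58.3 CPM for Mir301b. The deposited counts are per hairpin gene, so reads from the 5p and 3p arms were not separated.

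**Figure D2:**
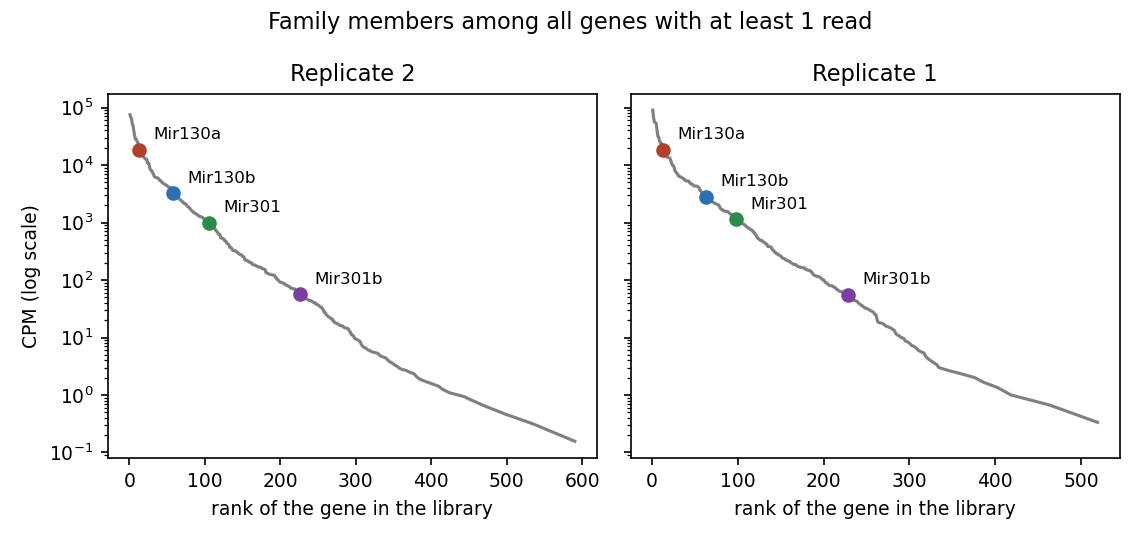
Level in CPM (log scale) against rank for all genes with at least 1 read, in replicate 2 (left) and replicate 1 (right), with the 4 family members marked. Mir130a sits at rank 13 in both panels and Mir301b at rank 226 in replicate 2 and 228 in replicate 1.

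Within the family, Mir130a took 81.1% of the reads in replicate 2 (95% Clopper-Pearson interval 80.9 to 81.3) and 82.1% in replicate 1 (81.8 to 82.4). Mir130b took 14.3% in replicate 2 (14.1 to 14.4) and 12.6% in replicate 1 (12.3 to 12.8). Mir301 took 4.40% in replicate 2 (4.29 to 4.50) and 5.05% in replicate 1 (4.89 to 5.22). Mir301b took 0.252% in replicate 2 (0.226 to 0.279) and 0.249% in replicate 1 (0.213 to 0.290). The intervals of the replicates did not overlap for Mir130a, Mir130b and Mir301, and they did for Mir301b. The Mir130b share was the one that was higher in replicate 2 by more than counting error, while those of Mir130a and Mir301 were higher in replicate 1. Shares are parts of a whole, so a higher Mir130b share by itself lowers the others. The level of Mir130a was 18476 CPM in replicate 2 and 18439 CPM in replicate 1.

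**Figure D3:**
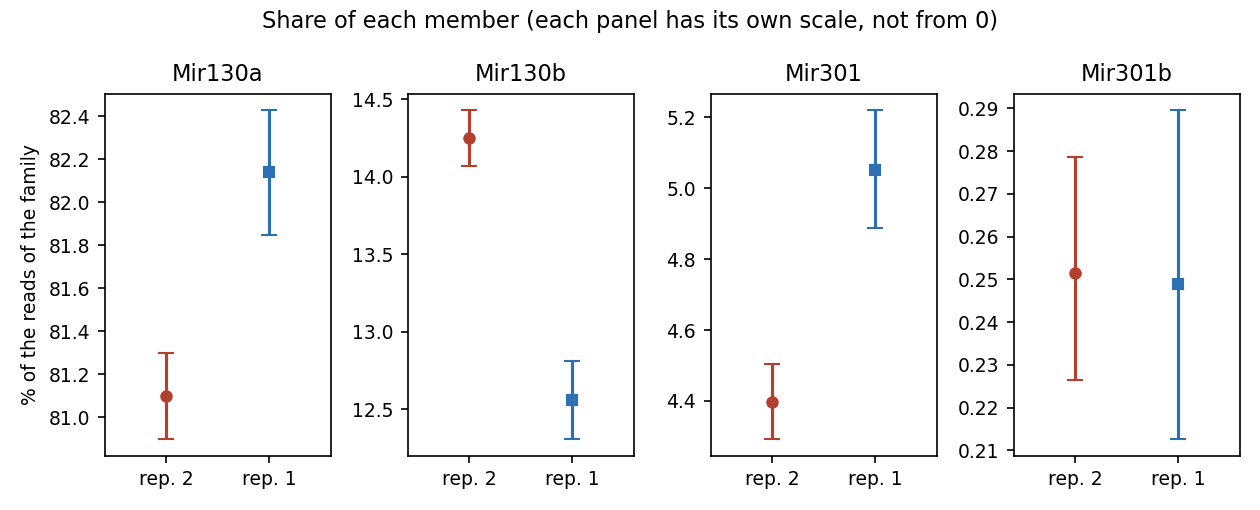
Share of each member in the reads of the family, in percent, in replicate 2 (red circles, left) and replicate 1 (blue squares, right). Bars are 95% Clopper-Pearson intervals and cover counting error only, and each panel has its own axis, which does not start at 0. The Mir130b share is 14.3% in replicate 2 and 12.6% in replicate 1.

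The neighbours in the intron of 2610318N02Rik had very unequal counts. Mir130b had 56.6 reads for each read of Mir301b in replicate 2 (95% interval 51.1 to 63.0) and 50.4 in replicate 1 (43.3 to 59.2). These intervals overlapped, so a change in this ratio between the libraries was not detectable at this depth. On the log2 scale the ratio of Mir130b over Mir301b was 5.74 ± 0.12 (SD, n = 2). The pairs alike in sequence were also unequal. Mir130a had 5.69 reads for each read of Mir130b in replicate 2 (5.61 to 5.78) and 6.54 in replicate 1 (6.39 to 6.69), and Mir301 had 17.5 reads for each read of Mir301b in replicate 2 (15.7 to 19.5) and 20.3 in replicate 1 (17.4 to 23.9). Mir130b had 3.24 reads for each read of Mir301 in replicate 2 (3.15 to 3.33) and 2.49 in replicate 1 (2.39 to 2.59). The Mir130b over Mir301 ratio moved most between the libraries among the 6 pairs of members, by 0.38 on the log2 scale. Mir130a had 18.4 reads for each read of Mir301 in replicate 2 (18.0 to 18.9) and 16.3 in replicate 1 (15.7 to 16.8). The intervals of the replicates overlapped for the 3 pairs that include Mir301b and for none of the other 3.

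Differences between the libraries were then tested gene by gene with an exact binomial test (two-sided), and p-values were adjusted over all 333 tested genes. All 4 members passed the read requirement. Mir130b was higher in replicate 2, with a log2 ratio of replicate 2 over replicate 1 of 0.20 (95% interval 0.17 to 0.24, exact binomial adjusted p = 1.42e-27). Mir301 was higher in replicate 1, with a log2 ratio of −0.18 (−0.24 to −0.12, exact binomial adjusted p = 2.08e-08). Mir301b had a log2 ratio of 0.04 (−0.23 to 0.31, exact binomial adjusted p = 0.875) and was not called. The Mir301b interval spans a difference of 0.31 in one direction and −0.23 in the other, so its few reads leave room for changes as large as those of Mir130b and Mir301.

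Mir130a had a log2 ratio of 0.0029 (−0.012 to 0.018, exact binomial adjusted p = 0.792) and was not called. This call rests on the scaling, since DESeq2 size factors gave a log2 ratio of 0.031 and an exact binomial adjusted p of 6.87e-05, while total-count scaling gave −0.0072 and an exact binomial adjusted p of 0.447. Adjusted p over the 6 alternatives ran between 6.87e-05 and 0.949. The size of the Mir130a ratio was at most 0.031 under all 6.

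Of the 4 members, 1 was called higher in replicate 2 and 1 higher in replicate 1, where 53.5% of all tested genes were called, 25.8% as higher in replicate 2 and 27.6% as higher in replicate 1. The share of called genes depends on the filter, at 67.2% of the 247 genes with at least 100 reads in each library and 26.3% of 708 genes with no filter beyond 1 read, and nothing particular to the family is read from its count. The median log2 ratio of the members was 0.02, against −0.02 over all 333 genes. The median size of the log2 ratio was 0.11 for the members and 0.20 for all tested genes. All 4 members and 297 of the 333 tested genes, or 89.2%, lay within 1.5-fold. The test has 1 library on each side and no residual degrees of freedom, so it compares these libraries and covers counting error only. With only these libraries, the smallest p that even a one-sided exact permutation test allows is 0.5.

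**Figure D4:**
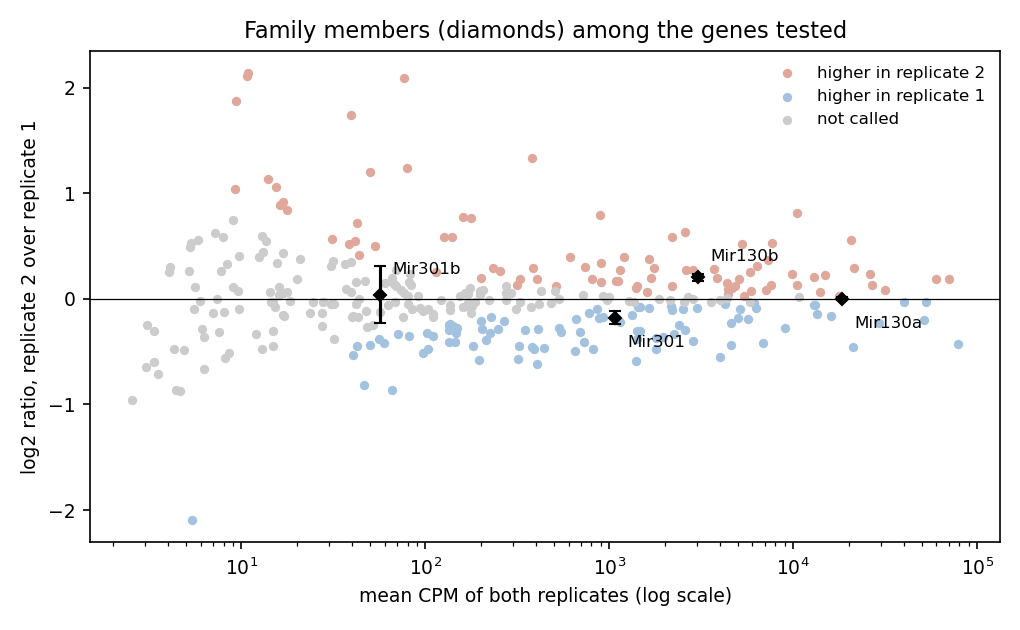
Log2 of the CPM ratio, replicate 2 over replicate 1, against mean CPM (log scale) for the 333 tested genes, coloured by the exact binomial call. Black diamonds are the 4 family members with their 95% intervals, which cover counting error only. Mir130b lies at 0.20, Mir301 at −0.18, and Mir130a and Mir301b lie close to 0.

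Other genes with the same seed hardly contributed reads. Among 1738 mature products in the RefSeq table, 7 had the seed AGUGCAA, and 4 of these belong to genes outside the family, Mir130c, Mir721, Mir6341 and Mir6389. Mir721 was not among the counted genes. The products of the other 3 are shown to compare their 3′ parts with those of the family, again with bases 2 to 8 in capitals.
mmu-miR-130c: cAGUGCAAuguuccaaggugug
mmu-miR-6341: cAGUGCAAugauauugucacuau
mmu-miR-6389: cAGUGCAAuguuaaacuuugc
Mir130c had 1 read in replicate 2 and 0 in replicate 1, and Mir6341 and Mir6389 had 0 reads in both libraries. With 3 reads taken as the limit that a count of 0 allows, levels at 0 reads were at most 0.470 CPM in replicate 2, against 1.00 CPM in replicate 1. The 1 read of Mir130c in replicate 2 equals 0.157 CPM, and this limit does not apply to it. Among the counted genes with this seed, nearly all assigned reads therefore came from the family.

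A pair of further families has seeds that overlap the family seed with a shift of 1 base. The miR-148 and miR-152 products share the run AGUGCA with it, and the miR-19 products share the run GUGCAA. Their mature products are shown to make the shift visible, with bases 2 to 8 in capitals.
mmu-miR-148a-3p: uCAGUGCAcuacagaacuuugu
mmu-miR-148b-3p: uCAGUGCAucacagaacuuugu
mmu-miR-152-3p: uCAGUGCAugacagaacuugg
mmu-miR-19a-3p: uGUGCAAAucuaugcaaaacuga
mmu-miR-19b-3p: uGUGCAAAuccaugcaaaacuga
Mir148a, Mir148b and Mir152, which are known among other things for silencing DNA methyltransferase genes, summed to 1614 CPM in replicate 2, against 1731 CPM in replicate 1. The Mir130 and Mir301 family sum was 14.1-fold higher than this in replicate 2 and 13.0-fold higher in replicate 1. Mir148a held most of that sum, with 1344 CPM in replicate 2, against 1368 CPM in replicate 1. It was higher than Mir301 in both libraries, which had 1002 and 1134 CPM. Mir19a, Mir19b-1 and Mir19b-2, members of the growth-associated Mir17 cluster and its paralogue, summed to 45.1 CPM in replicate 2, against 60.6 CPM in replicate 1. The identical miR-19b-3p of Mir19b-1 and Mir19b-2 means that its reads map to several places, so these counts are uncertain and no fold against them is given. Of the 6 genes with a shifted seed, none was called higher in replicate 2, 3 were called higher in replicate 1 (Mir148b, Mir152 and Mir19a) and 3 were not called, next to 25.8% and 27.6% of all tested genes called in these directions. Their log2 ratios were −0.40 for Mir148b, −0.45 for Mir152 and −0.53 for Mir19a.

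**Figure D5:**
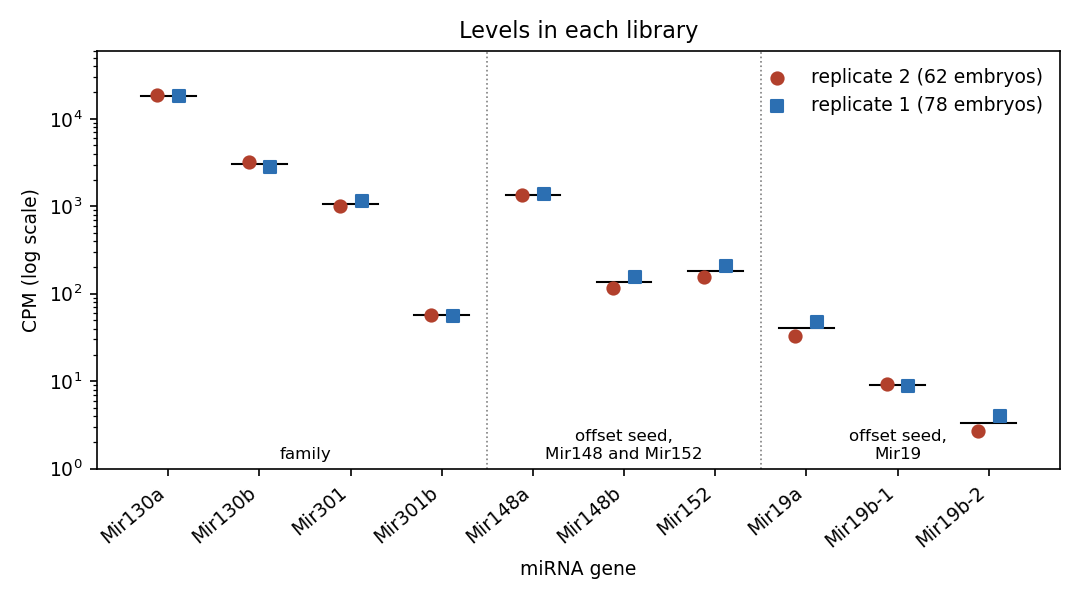
Level in CPM (log scale) of the 4 family members and of 6 genes whose seeds overlap the family seed with a shift of 1 base. Red circles are replicate 2, blue squares are replicate 1 and black lines are their means. Mir130a stands highest, at 18476 CPM in replicate 2 and 18439 CPM in replicate 1, and Mir148a lies above Mir301 in both.

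The genes outside the family with the most similar pair of levels were taken as the 3 with the smallest distance in log2 CPM over the 2 libraries, which describes level more than pattern. For Mir130a these were Mir143, a smooth muscle miRNA, at a distance of 0.08, the mesenchymal Mir214 (0.32) and Mir429 of the epithelial Mir200 family (0.35). Mir143 had 17982 CPM in replicate 2, against 17587 CPM in replicate 1. For Mir130b they were Mirlet7f-2 (0.14), Mir15a (0.20) and Mir296 (0.21), and for Mir301 they were Mir107 (0.13), Mir134 (0.20) and Mir433 (0.22). For Mir301b they were Mir33 (0.11), Mir331 (0.15) and Mir138-1 (0.23). By their names, Mirlet7f-2 and Mir138-1 are copies, and copies can share mature products. Reads that mapped to several places were left out, so the levels of both, and their places here, are uncertain. Against the vessel marker Mir126a, an endothelial miRNA with 28414 CPM in replicate 2 and 24156 CPM in replicate 1, Mir130a was lower in both libraries. The log2 ratio of replicate 2 over replicate 1 was 0.23 for Mir126a and 0.0029 for Mir130a. Whether the cell make-up of the pools takes part in the family's ratios was not tested.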

How the data were processed

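Reads per miRNA gene were taken as raw counts, as deposited by the authors, made on mm10 with GENCODE M4 per the deposited file lists. For the aligner and the counter, the name is not given in the sources used here. Lines naming no gene (unmapped, several places, outside genes) made up 54.5% of reads in replicate 2 and 49.0% in replicate 1 and stayed out of library sizes. Columns for the gene strand and the opposite strand summed to the column for either strand in all 1973 genes, and the either-strand column was used. Symbols and positions (1-based) came from GENCODE M21, which matched 1894 genes by identifier without version. Sequences came from RefSeq.

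Counts were scaled with TMM factors computed on genes with at least 10 reads in each library (edgeR 4.0.16, R 4.3.3), and 333 genes were tested by a two-sided exact binomial test with the expected share set by the effective library sizes, Benjamini-Hochberg adjustment across these genes and a threshold of 0.05. The test was checked on data simulated with counting error alone, so the check does not cover variation between pools. The labels call the pools biological replicates and give no more on how they were kept apart, so the spread may be partly technical. Alternatives were total-count scaling, DESeq2 1.42.0 size factors, other filters, the gene strand only, each replicate left out and Mir203 left out of the totals. Python 3.11.15, pandas 2.3.3, scipy 1.17.1 and matplotlib 3.10.9 were used. The text names the members, counted genes with the same or a shifted seed, hosts, neighbours within 10000 bases, the 3 genes nearest in level to each member and the most abundant gene. Marker lists for smooth muscle (18231 CPM in replicate 2, 17876 CPM in replicate 1), striated muscle (6087, 8091 CPM, 8 of 9 listed genes counted and 4 detected), leukocytes (622, 565 CPM, 3 of 4 listed genes counted) and erythroid cells (213.8, 196 CPM) were also summed. The leukocyte sum lacks Mir142, which was not counted. It also leaves out Mir142b, at 618.9 CPM in replicate 2 and 707.0 CPM in replicate 1, all on the strand opposite to the gene. The copies of Mir1a and of Mir133a in the striated muscle list share mature products, so their low counts are uncertain. Members and lists were chosen with earlier results of these data known.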

Additional observations from a re-analysis of the deposited data

How the results depend on the processing

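Of 79 recomputed values, 22 came from leaving out a replicate. With 2 replicates such a mean always stays within 1 SD, so these say nothing about stability, apart from the order of the members, which was the same in each library. Of the other 57, for the members, the family sum, the shares, the order and the count of called genes, 49 kept their direction and side of the threshold, stayed within 1 SD for levels and shares, or within 1.5 times for the count. The Mir130a ratio turned to −0.0072 with total-count scaling, and with DESeq2 size factors it was 0.031 and passed the threshold. These scalings move the median of all genes by −0.01 and 0.03 on the log2 scale, which is more than the Mir130a ratio itself. With Mir203 left out of the totals, Mir130a stood at 20044 CPM, Mir301b at 61.5 CPM and the family sum at 24558 CPM, since fewer reads remain in the totals. With reads on the gene strand only, the same values were 19092, 58.5 and 23393 CPM. Called genes numbered between 166 and 186 under the alternatives run, but the share called was 67.2% with at least 100 reads in each library and 26.3% with no filter beyond 1 read, since 247 and 708 genes were tested. No paired analysis was possible because the labels give 1 group. With 1 library on each side, depth limits Mir301b most, at 366 and 167 reads in replicates 2 and 1.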
